A study of Rattus norvegicus with 15 samples.

Results

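The genes described here are 8 genes of Paneth cells and of mucosal defence against microbes: Mptx1, Pla2g2a, Defa5, Mmp7, Lyz2, Ang1, Lypd8l2 and Dnase1. They were taken by name from an array of 41012 probes outside the controls, with the words mucosal pentraxin in the probe description standing for Mptx1, and they had been picked with their pattern across the groups already known, so their levels and differences are a description. No p-value is given for them, and how many passed the fit over all genes is stated only as a count from which nothing is read. Of the 8 genes, 7 had a probe, each with 1 probe printed as 1 spot, and 6 entered the fit over 13042 genes because the probe was well above background on all 5 arrays of at least 1 group. Mptx1 met this condition only through GK-S-30, the group where it was high. Defa5 was well above background on none of 15 arrays. No probe carried the name Ang1. The array's only angiogenin probe, named Ang, cites a peptide that RefSeq now assigns to Ang2, and it is shown as the angiogenin probe with that limit.

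The samples were intestinal segments of male rats, 1 rat and 1 array each, in 3 groups of 5. Goto-Kakizaki (GK) rats are a lean strain that develops type 2 diabetes spontaneously. In the GK-S-30 group, GK rats had Roux-en-Y gastric bypass (RYGB) at 16 wk of age with a Roux limb (RL) of 30 cm, the limb that carries food from the upper stomach and receives no bile until it meets the other limb, and the RL was sampled. In the GK-Sham-PF group, GK rats of the same age had the bowel cut and rejoined in place and were pair-fed to the operated rats, and in the Wistar group, rats of the nondiabetic Wistar strain had no operation, with the matching segment taken in both. Tissue was collected 14 wk after surgery following an overnight fast. GK-Sham-PF and Wistar thus differed in strain, operation and feeding at once, and surgery was addressed by GK-S-30 vs. GK-Sham-PF. The whole segment was measured, so fewer cells of a type and less RNA per cell cannot be told apart.

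Paneth cells sit at the base of small intestinal crypts and release granules of antimicrobial peptides and enzymes into the lumen. Matrix metalloproteinase 7 (Mmp7) cuts alpha-defensin precursors into their active form in the mouse, lysozyme breaks the bacterial cell wall, and group IIA phospholipase A2 (Pla2g2a) attacks bacterial membranes. Mucosal pentraxin (Mptx1) is a gut relative of C-reactive protein, angiogenins are secreted ribonucleases, Dnase1 is a secreted enzyme that digests DNA, and Lypd8 proteins are anchored on the epithelial surface and hold flagellated bacteria away from it.

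The array files place the probes on rat genome build rn4. The probe for Pla2g2a lies at chr5:157657033-157657092 on the plus strand, that for Mmp7 at chr8:4533647-4533706 on the plus strand, and that for Defa5 at chr16:75024441-75024500 on the minus strand. Lypd8l2 and Dnase1 both lie on the minus strand of chromosome 10, at chr10:44471169-44471228 and chr10:11762599-11762658. The Lyz2 probe spans chr7:56608440-56609236 on the minus strand, longer than the 60 bases of the probe, and its accession list also holds a transcript of the paralog Lyc2, so signal from the paralog cannot be told apart, although Lyc2's own probe was well above background on 0 arrays. The angiogenin probe lies at chr15:27160328-27160387 on the minus strand, and the Mptx1 probe has no position in the files. The probes of Mptx1 and Lypd8l2, whose signals moved most between groups, and of Pla2g2a, the granule enzyme, are printed so that the transcript measured is exact. No letters are set in capitals.
Mptx1 probe: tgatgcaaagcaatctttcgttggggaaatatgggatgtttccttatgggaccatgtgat
Lypd8l2 probe: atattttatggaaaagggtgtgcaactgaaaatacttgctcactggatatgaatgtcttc
Pla2g2a probe: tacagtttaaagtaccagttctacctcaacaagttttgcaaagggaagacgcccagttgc

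The 250 bases before the annotated start (RefSeq, build GRCr8) are shown for Mptx1, Dnase1 and Lypd8l2, the genes that separated groups most. They lie at chr13:88263870-88264119, chr10:12008245-12008494 and chr10:43495698-43495947, all on the minus strand. Capitals mark matches on either strand to TATAA (the TATA-box core), CTTTGA (TCF/LEF), TTTATG (CDX) and GATAAG (the core of a GATA factor site).
Mptx1 upstream: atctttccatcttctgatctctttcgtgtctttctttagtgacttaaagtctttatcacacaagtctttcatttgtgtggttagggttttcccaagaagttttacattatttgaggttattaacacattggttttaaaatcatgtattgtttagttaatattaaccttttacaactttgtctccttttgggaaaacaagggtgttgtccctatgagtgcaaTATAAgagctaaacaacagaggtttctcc
Dnase1 upstream: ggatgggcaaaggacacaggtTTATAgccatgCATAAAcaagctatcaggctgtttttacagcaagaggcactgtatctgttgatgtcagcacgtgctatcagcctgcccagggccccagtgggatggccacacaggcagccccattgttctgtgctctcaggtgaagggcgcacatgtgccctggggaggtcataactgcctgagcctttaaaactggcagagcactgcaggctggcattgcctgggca
Lypd8l2 upstream: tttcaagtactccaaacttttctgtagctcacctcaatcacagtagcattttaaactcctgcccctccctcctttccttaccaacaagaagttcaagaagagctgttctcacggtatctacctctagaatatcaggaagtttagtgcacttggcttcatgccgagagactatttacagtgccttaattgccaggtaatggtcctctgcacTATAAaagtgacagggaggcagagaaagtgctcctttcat
The TATAA match began 29 bases before the start in Mptx1 and 40 bases before it in Lypd8l2. In Dnase1 the letters TTATA, its other strand, began 229 bases before the start, and CATAAA, the other strand of the CDX core, began 218 bases before it. TATAA was held by 24% of 33469 upstream windows of the same length, TTTATG by 11.4%, CTTTGA by 13.9% and GATAAG by 6.18%. A match is a description of the letters and not a site.

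Values below are log2 of the scanner's processed signal after quantile normalization, with the mean ± SD (n = 5), and a fold change carries its standard error (SE) from the limma fit. On each array 66.7% to 74.8% of probes cleared the background threshold and no spot was saturated. The dimmer arrays were Wistar replicate 3, with a 75th percentile of signal of 206.6, and GK-Sham-PF replicate 5, with 208.4, against 301.9 to 357.2 for the rest. Arrays came from 4 slides. Wistar replicate 1 shared a slide with GK-Sham-PF replicates 1 to 3 (slide B), GK-Sham-PF replicates 4 and 5 shared one with GK-S-30 replicates 1 and 2 (slide C), and the others lay on slides of 1 group, so no slide held both Wistar and GK-S-30. The values called within a slide compare those few arrays only. Markers of intestinal epithelium were present in each group. The summed signal of 10 jejunal enterocyte markers was 19.55 to 19.72 for Wistar, 19.42 to 19.63 for GK-Sham-PF and 19.2 to 19.55 for GK-S-30, with Fabp2 and Mttp called lower in GK-S-30 vs. Wistar and Mttp in GK-S-30 vs. GK-Sham-PF, and that of 10 epithelial markers ran from 18.91 to 19.35. Of 5 markers of the distal small intestine, 2 were called higher in GK-S-30 vs. GK-Sham-PF, Slc10a2 by 3.43 ± 0.3 (SE) and Fabp6 by 1.71 ± 0.42 (SE), and 3 vs. Wistar, and their summed signal was 13.32 to 13.61 for Wistar, 13.45 to 13.8 for GK-Sham-PF and 13.67 to 14.07 for GK-S-30. Slc10a2 was also called lower in GK-Sham-PF vs. Wistar, with a difference of -2.41 ± 0.3 (SE). In GK-S-30 vs. Wistar the difference was 1.02 ± 0.3 (SE) for Slc10a2, with overlapping arrays, and 2.08 ± 0.42 (SE) for Fabp6, without overlap. The part of the distal markers in the results was not tested. Gastric markers, which could enter from the join with the stomach, summed to 9.94 to 10.58 for Wistar, 9.86 to 10.29 for GK-Sham-PF and 9.83 to 10.13 for GK-S-30, with Cblif and Anxa10 well above background on no array. Gkn2 and Atp4a were well above background on some GK-S-30 arrays and on no array of the other groups. The part of stomach tissue in the results was not tested.

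Mptx1 was near background in most unoperated or sham-operated rats and bright in the RL. Its log2 signals in GK-S-30 replicates 1 to 5 were 13.03, 14.54, 12.57, 9.45 and 12.89. In GK-Sham-PF they were 1.53, 1.99, 5.46, 9 and 1.34, and in Wistar 2.41, 1.46, 1.41, 1.94 and 4.38. All GK-S-30 arrays lay above all others, yet GK-S-30 replicate 4 and GK-Sham-PF replicate 4 were only 9.45 and 9. The probe was well above background on 5 of 5 GK-S-30 arrays, on 2 of 5 GK-Sham-PF arrays (replicates 3 and 4) and on 1 of 5 Wistar arrays (replicate 5). The log2 fold change was 8.63 ± 1.31 (SE) in GK-S-30 vs. GK-Sham-PF and 10.18 ± 1.31 (SE) in GK-S-30 vs. Wistar. With each dim array raised to the lowest signal well above background on that array, the differences were 7.6 and 8.99, or at least 194-fold and at least 509-fold under this normalization only. With normexp background correction and no such floor they were 5.35 ± 0.7 (SE) and 5.97 ± 0.7 (SE), so the size depended on how the background was treated. Within slide C the difference was 8.62. GK-Sham-PF lay 1.54 ± 1.31 (SE) above Wistar, with overlapping arrays, and this rested on GK-Sham-PF replicate 4, since it was 0.26 without it. The order was GK-S-30 first, with GK-Sham-PF and Wistar not apart beyond their spread.

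**Figure D1:**
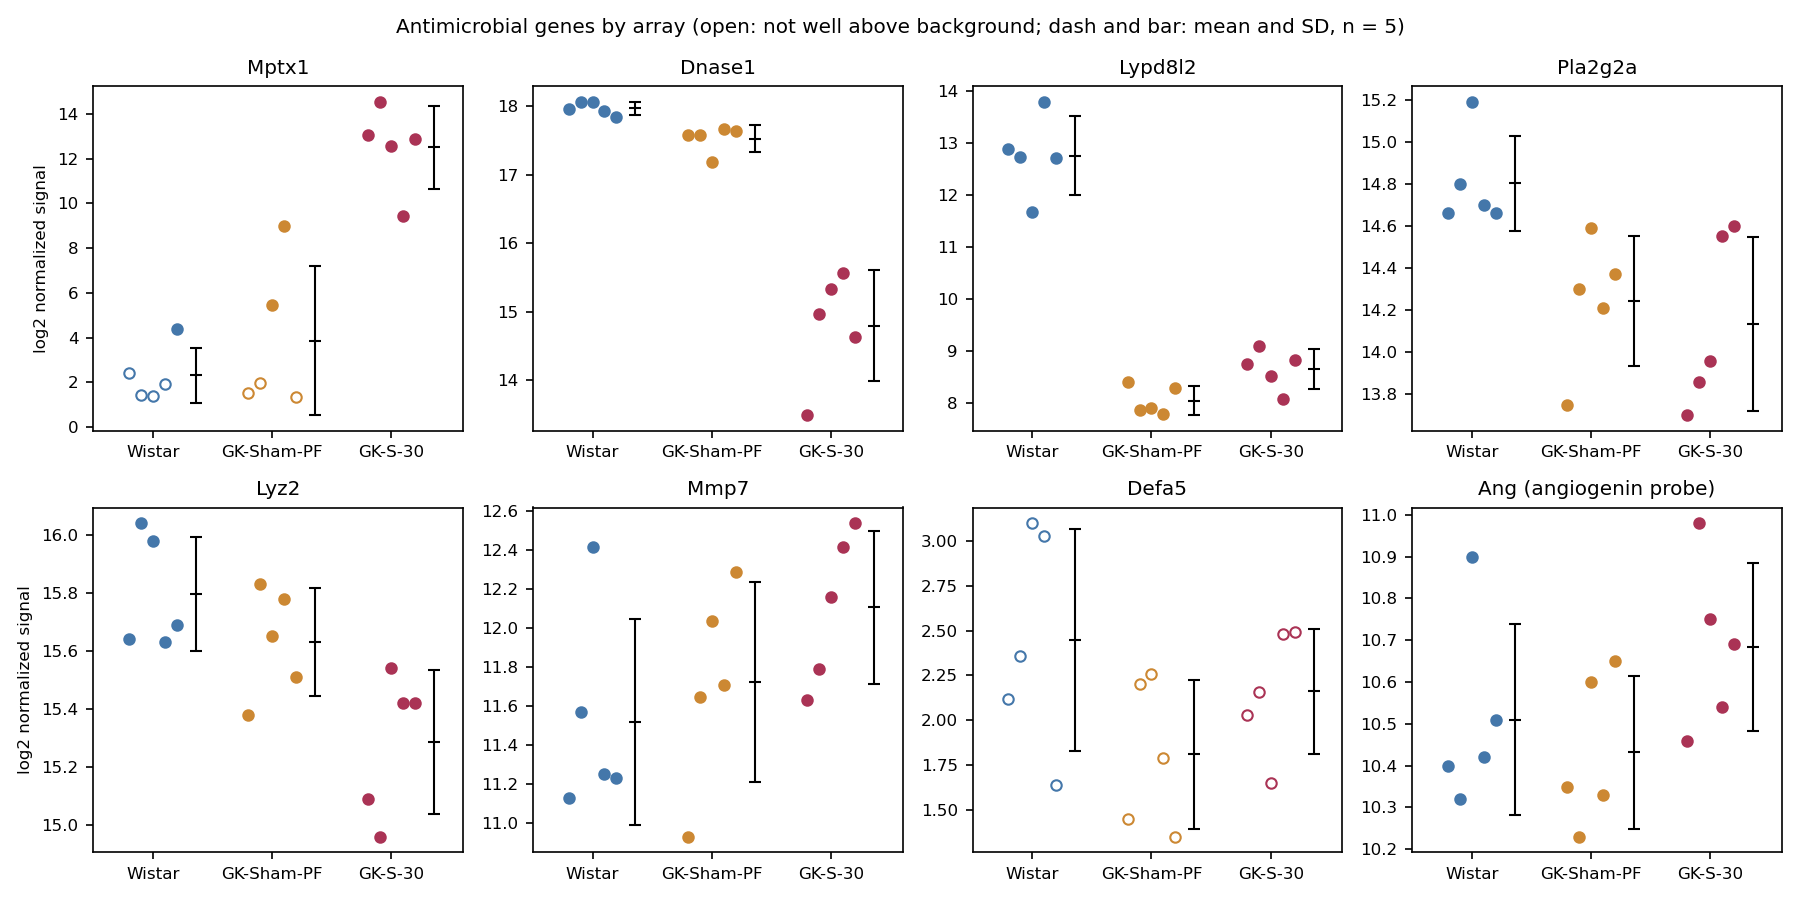
Log2 normalized signal (vertical axis, own range in each panel) of 8 probes on each of 15 arrays, by group, with replicates 1 to 5 from left to right, filled points well above background, open points not, and the dash and bar giving mean and SD. Mptx1 lies between 9.45 and 14.54 in GK-S-30, Dnase1 lies between 13.49 and 15.57 there, and Lypd8l2 is at 11.67 or more only in Wistar.

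Dnase1 showed the opposite order. Its log2 signals were 17.96, 18.06, 18.06, 17.92 and 17.84 on the Wistar arrays, 17.57, 17.57, 17.18, 17.66 and 17.64 on the GK-Sham-PF arrays, and 13.49, 14.97, 15.33, 15.57 and 14.63 in GK-S-30. After quantile normalization the groups did not overlap in any pair, and the spread was widest in GK-S-30 (SD 0.81 against 0.09 in Wistar). GK-S-30 lay below GK-Sham-PF with a log2 difference of -2.72 ± 0.28 (SE), 6.61-fold, and below Wistar with one of -3.17 ± 0.28 (SE), 8.99-fold. Within slide C the difference was -3.42. The difference from GK-Sham-PF was the second-largest fall of the 13042 genes. GK-Sham-PF lay below Wistar with a difference of -0.45 ± 0.28 (SE), 1.36-fold, with a value of -0.52 within slide B.

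Lypd8l2 was high in Wistar and low in both GK groups. Single arrays gave 12.88, 12.74, 11.67, 13.80 and 12.71 for Wistar, 8.41, 7.86, 7.90, 7.78 and 8.29 for GK-Sham-PF, and 8.75, 9.10, 8.53, 8.08 and 8.83 in GK-S-30. Every GK array lay below every Wistar array, and the 2 GK groups overlapped. GK-Sham-PF lay below Wistar with a log2 difference of -4.71 ± 0.3 (SE), 26.2-fold, and GK-S-30 lay below Wistar with one of -4.1 ± 0.3 (SE), 17.2-fold. Within slide B the first difference was -4.82. It was the fifth-largest fall of the 13042 genes. GK-S-30 lay 0.61 ± 0.3 (SE) above GK-Sham-PF. A sequence difference between the strains under the probe was not tested.

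Among the enzymes stored in Paneth granules, Pla2g2a was lower in both GK groups than in Wistar. The arrays gave 14.66, 14.80, 15.19, 14.70 and 14.66 on Wistar arrays, 13.75, 14.30, 14.59, 14.21 and 14.37 on GK-Sham-PF arrays, and 13.70, 13.86, 13.96, 14.55 and 14.60 in GK-S-30. After quantile normalization the GK arrays all lay below the Wistar arrays, with the highest GK array at 14.60 and the lowest Wistar array at 14.66. The processed signals before normalization overlapped, with 27600 in GK-Sham-PF replicate 3 and 28300 in GK-S-30 replicate 5 against 24600 in Wistar replicate 1. The log2 differences were -0.56 ± 0.19 (SE) in GK-Sham-PF vs. Wistar and -0.67 ± 0.19 (SE) in GK-S-30 vs. Wistar, while the 2 GK groups differed by -0.11 ± 0.19 (SE) and overlapped, a difference of -0.51 within slide C.

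Lyz2 was lowest in GK-S-30. The 15 values were 15.64, 16.04, 15.98, 15.63 and 15.69 for Wistar, 15.38, 15.83, 15.65, 15.78 and 15.51 for GK-Sham-PF, and 15.09, 14.96, 15.54, 15.42 and 15.42 in GK-S-30. The log2 difference was -0.51 ± 0.13 (SE) in GK-S-30 vs. Wistar without overlap, -0.35 ± 0.13 (SE) vs. GK-Sham-PF with overlap, and -0.16 ± 0.13 (SE) in GK-Sham-PF vs. Wistar with overlap. Within slide C the difference from GK-Sham-PF was -0.63. The processed signals before normalization did overlap between GK-S-30 and Wistar, with 53300 in GK-S-30 replicate 3 and 49000 in Wistar replicate 1. Lyz2 is also the lysozyme of macrophages. Markers of that cell type (12 on the array) summed to 15.12 to 15.52 in GK-S-30, 15.49 to 15.75 in GK-Sham-PF and 15.16 to 15.88 in Wistar, and 1 of the 12, C1qc, was called lower in GK-S-30 vs. GK-Sham-PF and none higher. In GK-S-30 vs. Wistar 4 of the 12 were called lower (Cd68, Itgam, Mrc1 and Aif1) and 1 higher (Adgre1). Their part in the Lyz2 difference was not tested.

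Mmp7 overlapped in every pair. Array by array the signals were 11.13, 11.57, 12.42, 11.25 and 11.23 on Wistar arrays, 10.93, 11.65, 12.04, 11.71 and 12.29 on GK-Sham-PF arrays, and 11.63, 11.79, 12.16, 12.42 and 12.54 in GK-S-30, with means of 11.52, 11.73 and 12.11. The differences were 0.38 ± 0.28 (SE) in GK-S-30 vs. GK-Sham-PF, 0.21 ± 0.28 (SE) in GK-Sham-PF vs. Wistar and 0.59 ± 0.28 (SE) in GK-S-30 vs. Wistar. Within slide C the sign turned, to -0.29. The angiogenin probe overlapped in every pair as well. Its means were 10.51 ± 0.23 for Wistar, 10.43 ± 0.19 for GK-Sham-PF and 10.68 ± 0.2 for GK-S-30, with differences of 0.25 ± 0.13 (SE), -0.08 ± 0.13 (SE) and 0.17 ± 0.13 (SE) in the same order of comparisons. The Defa5 probe gave 1.35 to 3.1 over the 15 arrays, not well above background on any, so no fold is given.

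By the adjusted p of the fit, 1 of the 6 tested genes was called higher (Mptx1) and 1 lower (Dnase1) in GK-S-30 vs. GK-Sham-PF. Of all genes 9.68% were called (5.18% higher, 4.49% lower) and 9.02% had arrays that did not overlap (4.67% higher, 4.36% lower), and the same 2 genes did not overlap. In GK-Sham-PF vs. Wistar 1 was called lower (Lypd8l2), and 3 were lower without overlap (Lypd8l2, Pla2g2a and Dnase1), where 8.85% of all genes were called (4.21% higher, 4.64% lower) and 9.7% did not overlap (4.59% higher, 5.11% lower). In GK-S-30 vs. Wistar 1 was called higher (Mptx1) and 4 lower (Dnase1, Lypd8l2, Pla2g2a and Lyz2), the same 5 without overlap, where 26.2% of all genes were called (12.4% higher, 13.8% lower) and 19.5% did not overlap (9.22% higher, 10.3% lower). Overlap was judged on the quantile-normalized values only and was not rechecked under another scaling. The genes were chosen on these contrasts, so nothing is read from the counts.

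**Figure D2:**
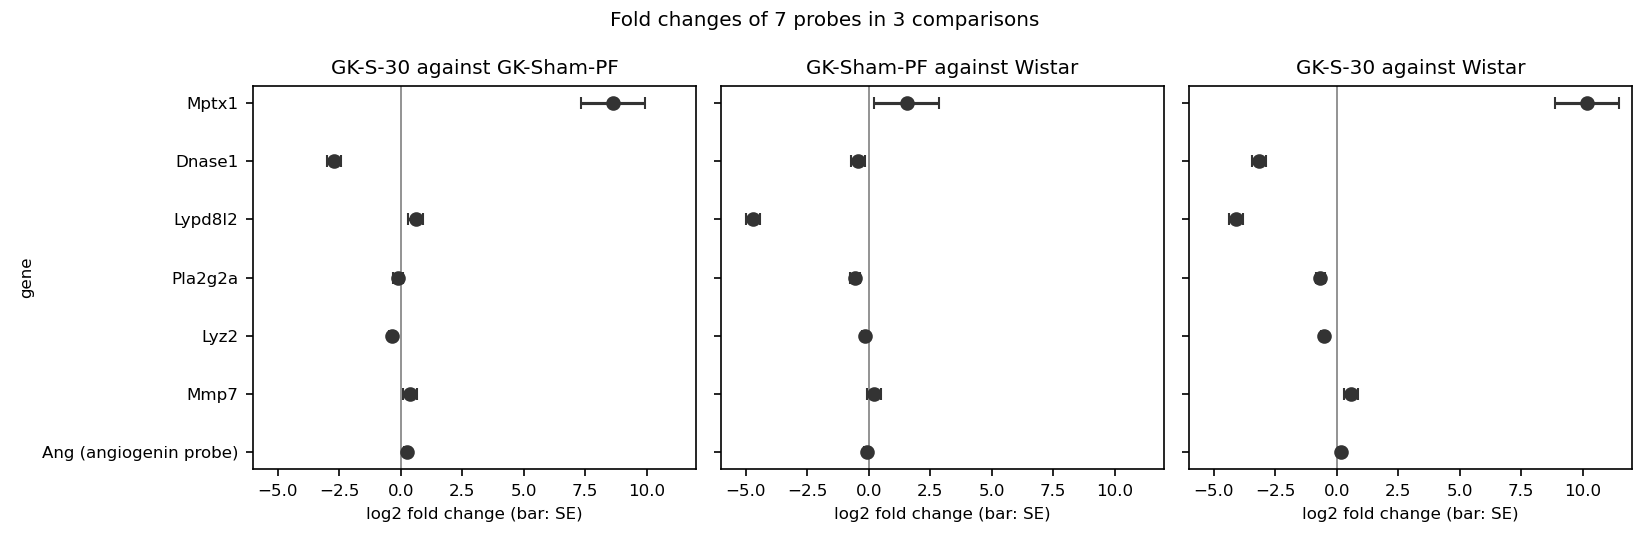
Log2 fold change (horizontal axis, with the SE of the fit as bar) of 7 probes in the 3 comparisons, the first group named over the second. Mptx1 lies at 8.63 and 10.18 in the comparisons with GK-S-30 in front, Lypd8l2 at -4.71 and -4.1 in those with Wistar behind, and Mmp7 and the angiogenin probe stay between -0.08 and 0.59.

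For each of the 5 genes whose groups did not overlap in at least 1 pair, the tested genes nearest in value were found by the root mean square difference of log2 values, each centred on its own mean, over 15 arrays. This measure counts the size of a change as well as its order over the groups. Nearest to Mptx1 were Duox2 (1.78, against 4.93 for the spread of Mptx1 itself), Gpx2 (3.3) and Crtac1 (3.46). Crtac1 differed by 1.68 in GK-S-30 vs. GK-Sham-PF and by more, 3.16, in GK-Sham-PF vs. Wistar, unlike Mptx1. Nearest to Dnase1 were C8g (0.52, against 1.47), Sugct (0.7) and Cyp2c6v1 (0.71). Nearest to Lypd8l2 were Akr1b8 (0.72, against 2.14), Cpox (0.74) and Tlcd4 (0.75). Pla2g2a, whose own spread was 0.41, was nearest to Pitpnc1 (0.14) and then to 2 products of the Paneth granule list, Habp2 (0.2) and Defa6 (0.21). Lyz2, with a spread of 0.28, was nearest to Sec14l3 (0.14), Plagl2 (0.15) and Nomo1 (0.15).

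Genes of the same functions outside the 8 names were counted as well, including Ang2, which is the angiogenin probe already described. Of 151 genes listed for Paneth granules, Paneth cell identity, the families of the genes above and other mucosal defence, 89 were tested. In GK-S-30 vs. GK-Sham-PF 16 (18%) passed an adjusted p of 0.05 (limma, Benjamini-Hochberg over all genes), 12 higher and 4 lower, where 5.18% of all genes were higher and 4.49% lower. In GK-Sham-PF vs. Wistar 18 (20.2%) passed, 14 higher and 4 lower, where 8.85% of all genes passed, and in GK-S-30 vs. Wistar 34 (38.2%) passed, 26 higher and 8 lower, where 26.2% of all genes passed. By list, the share passing in GK-S-30 vs. GK-Sham-PF was 22.2% for Paneth granules, 12.5% for Paneth cell identity, 19.2% for the families and 20% for other mucosal defence. The lists were chosen with earlier results of these data known, so nothing is read from shares above those of all genes. The median log2 difference of the 89 genes was 0.04, 0.07 and 0.09, near the all-gene medians of -0.03, 0.01 and -0.02. With the slide added to the model as a fixed block, 3, 2 and 3 of the 89 passed, and all genes called fell to 291, 180 and 240.

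Of the 9 tested granule genes, 2 rose in GK-S-30 vs. GK-Sham-PF, none fell and 7 did not pass. The alpha-defensins Defa6, Defa24, RatNP-3b and Np4 did not pass in any comparison. Defa6 means were 17.42 for Wistar, 17.04 for GK-Sham-PF and 17.07 for GK-S-30, a difference of 0.03 ± 0.15 (SE) for the operation (adjusted p = 0.938 in limma). In GK-Sham-PF vs. Wistar it was -0.37 ± 0.15 (SE) (adjusted p = 0.169 in limma), although the GK-Sham-PF arrays, 16.68 to 17.15, all lay below the Wistar arrays, 17.26 to 17.87. Defa24 differed by 0.04 ± 0.12 (SE), RatNP-3b by 0.06 ± 0.19 (SE) and Np4 by 0.05 ± 0.18 (SE) between the GK groups. Wistar replicate 3, a dimmer array, was the highest Wistar array for these 4 defensins and for Pla2g2a and Mmp7. Near-identical alpha-defensin genes can share a probe, so each value may cover several.

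Itln1, intelectin-1, a lectin that binds microbial sugars, rose in GK-S-30. Its log2 signals were 18.12, 18.12, 17.99, 17.79 and 18.16 in GK-S-30, 16.8, 16.59, 17.19, 17.49 and 16.48 in GK-Sham-PF and 16.41, 16.51, 16.54, 16.4 and 16.49 in Wistar. The rise over GK-Sham-PF was 1.13 ± 0.16 (SE), 2.18-fold (adjusted p = 0.000524 in limma). With the slide block it was 1.13 ± 0.27 (SE) (adjusted p = 0.0553). Reg3g and Reg3b, lectins that kill Gram-positive bacteria or bind bacterial surfaces, were at 16.16 to 16.88 and 17.47 to 18.09 in all 5 GK-S-30 arrays, and in GK-Sham-PF they split by array. Reg3g was 10.08, 11.21, 14.93, 11.1 and 16.55 in GK-Sham-PF replicates 1 to 5 and 9.25 to 11.49 in Wistar, so replicate 5 reached the level of the RL. The difference was 3.76 ± 0.96 (SE) for Reg3g (adjusted p = 0.0233 in limma, a call lost without GK-Sham-PF replicate 1, 2 or 4 or GK-S-30 replicate 5, with adjusted p of 0.0512 to 0.0616) and 2.75 ± 0.85 (SE) for Reg3b (adjusted p = 0.0549 in limma, and 0.0254 and 0.0105 without GK-Sham-PF replicates 3 and 5) in GK-S-30 vs. GK-Sham-PF, and 6.02 ± 0.96 (SE) and 4.73 ± 0.85 (SE) vs. Wistar (adjusted p = 0.000331 and 0.000888 in limma). With the slide as a block the differences from GK-Sham-PF were 2.39 for Reg3g and 1.9 for Reg3b (adjusted p = 0.468 and 0.52), so the Reg3g call was lost, and those from Wistar were 5.21 and 4.96 (adjusted p = 0.324 and 0.287). The sham arrays high in Reg3g were replicates 3 and 5, whereas Mptx1 was high in replicates 3 and 4. Habp2, a secreted serine protease, fell by 0.88 ± 0.17 (SE) in GK-Sham-PF vs. Wistar (adjusted p = 0.00261 in limma), and by 0.76 with the block (adjusted p = 0.439).

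**Figure D3:**
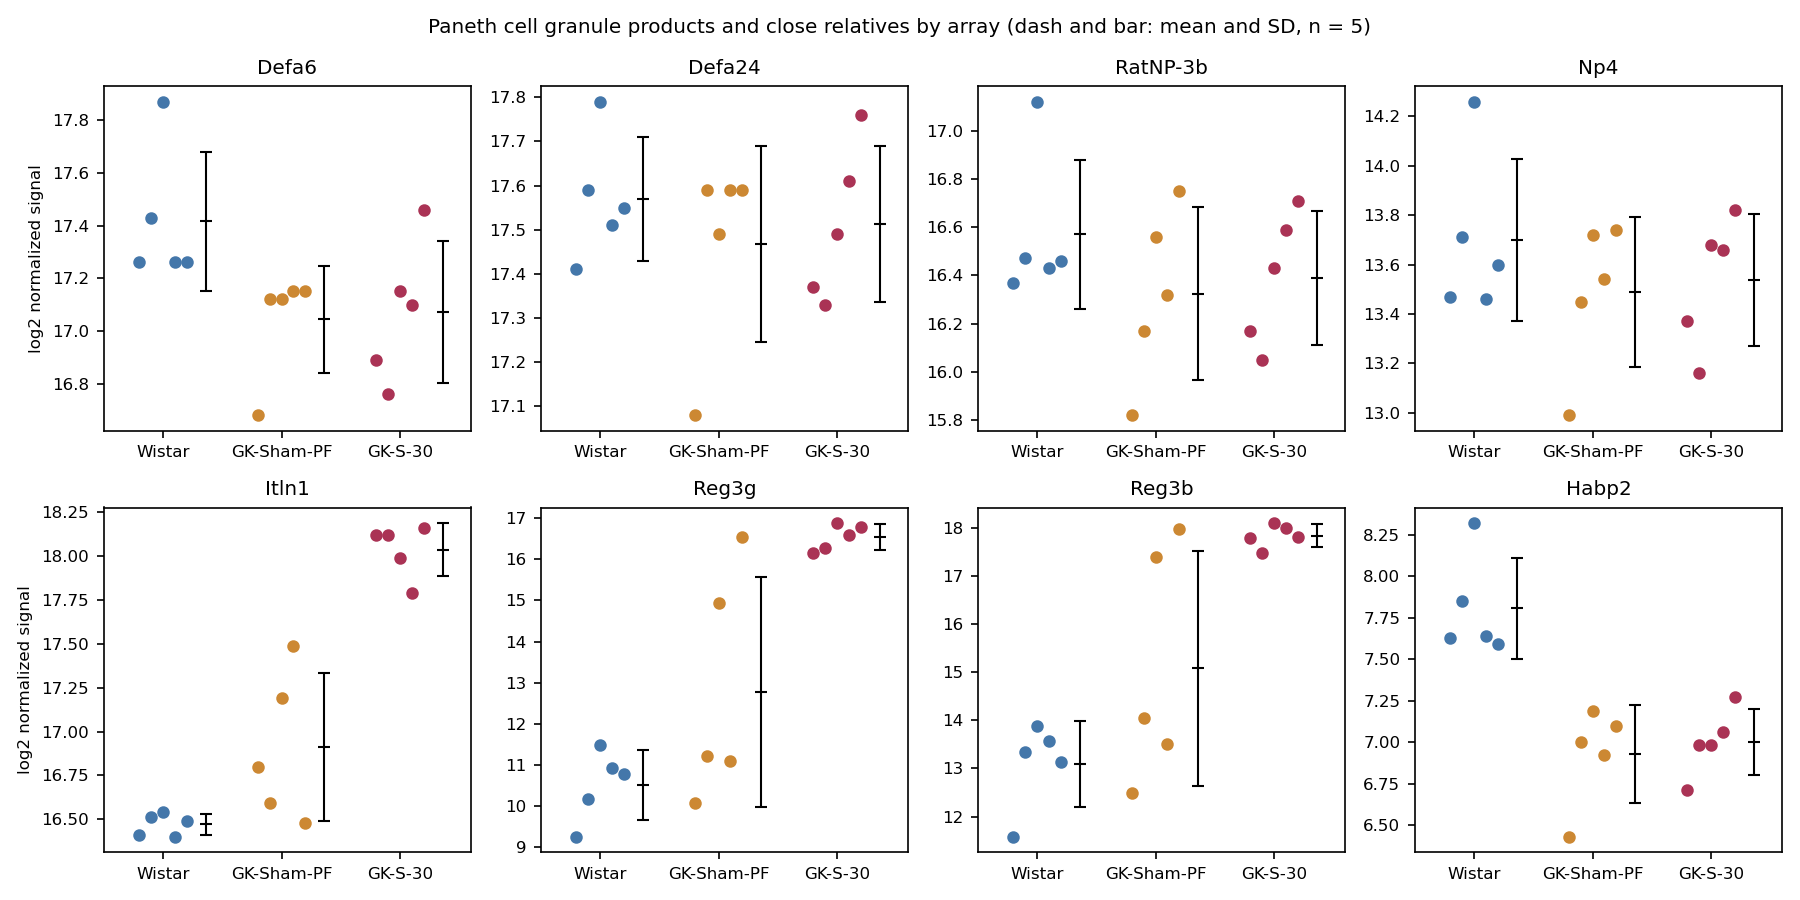
Log2 normalized signal (vertical axis, own range in each panel) of 8 genes of the Paneth granule list on each of 15 arrays, by group, with replicates 1 to 5 from left to right and the mean and SD as dash and bar. The 4 defensins overlap between the GK groups, Itln1 is at 17.79 or more in GK-S-30 and at 17.49 or less elsewhere, and Reg3g and Reg3b each reach the range of the GK-S-30 arrays in 1 GK-Sham-PF array, replicate 5.

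Of 24 tested genes of Paneth cell identity and secretion, 2 rose and 1 fell in GK-S-30 vs. GK-Sham-PF and 21 did not pass, so the share passing was near the 9.68% of all genes. Bhlha15, a transcription factor of secretory cells, rose by 0.58 ± 0.13 (SE) (adjusted p = 0.0115 in limma) and Tgfa, a growth factor, by 0.39 ± 0.11 (SE) (adjusted p = 0.0317 in limma), and Atg16l1, an autophagy gene needed for Paneth granules, fell by 0.33 ± 0.09 (SE) (adjusted p = 0.0305 in limma). The calls of Tgfa and Atg16l1 were each lost in 7 of the 15 runs that left out 1 array, GK arrays in every case, with adjusted p of up to 0.0724 (without GK-Sham-PF replicate 4) and 0.0693 (without GK-S-30 replicate 1). With the slide block the adjusted p of Bhlha15 was 0.3. Sox9, a transcription factor that Paneth cells need, was 5.09 for Wistar, 4.75 for GK-Sham-PF and 4.77 for GK-S-30 and did not pass in any pair.

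Of 26 tested members of the same gene families, 4 rose and 1 fell in GK-S-30 vs. GK-Sham-PF. Spaca3, a relative of lysozyme known from sperm, rose stepwise. Signals were 4.94 to 5.87 for Wistar, 8.83 to 10 for GK-Sham-PF and 10.21 to 11.48 for GK-S-30, with no overlap in any pair, differences of 4.03 ± 0.27 (SE) in GK-Sham-PF vs. Wistar (adjusted p = 6.87e-08 in limma) and 1.45 ± 0.27 (SE) in GK-S-30 vs. GK-Sham-PF (adjusted p = 0.00374 in limma). The first remained called with the slide as a block (adjusted p = 0.000367) and the second did not (adjusted p = 0.202). Lypd3, in the same protein family as Lypd8l2, rose in GK-S-30 by 1.15 ± 0.19 (SE) over GK-Sham-PF (adjusted p = 0.0014 in limma, and 0.00568 with the block). Dnase1l3, a relative of Dnase1, fell by 0.56 ± 0.13 (SE) (adjusted p = 0.0153 in limma, and -0.62 ± 0.2 (SE) with adjusted p = 0.139 with the block), and Dnase2, which digests DNA in lysosomes, differed by -0.04 ± 0.12 (SE) (adjusted p = 0.892 in limma). Pla2g12a, another secreted phospholipase, was 1.58 ± 0.12 (SE) higher in GK-Sham-PF than in Wistar (adjusted p = 2.75e-07 in limma), opposite in sign to Pla2g2a.

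**Figure D4:**
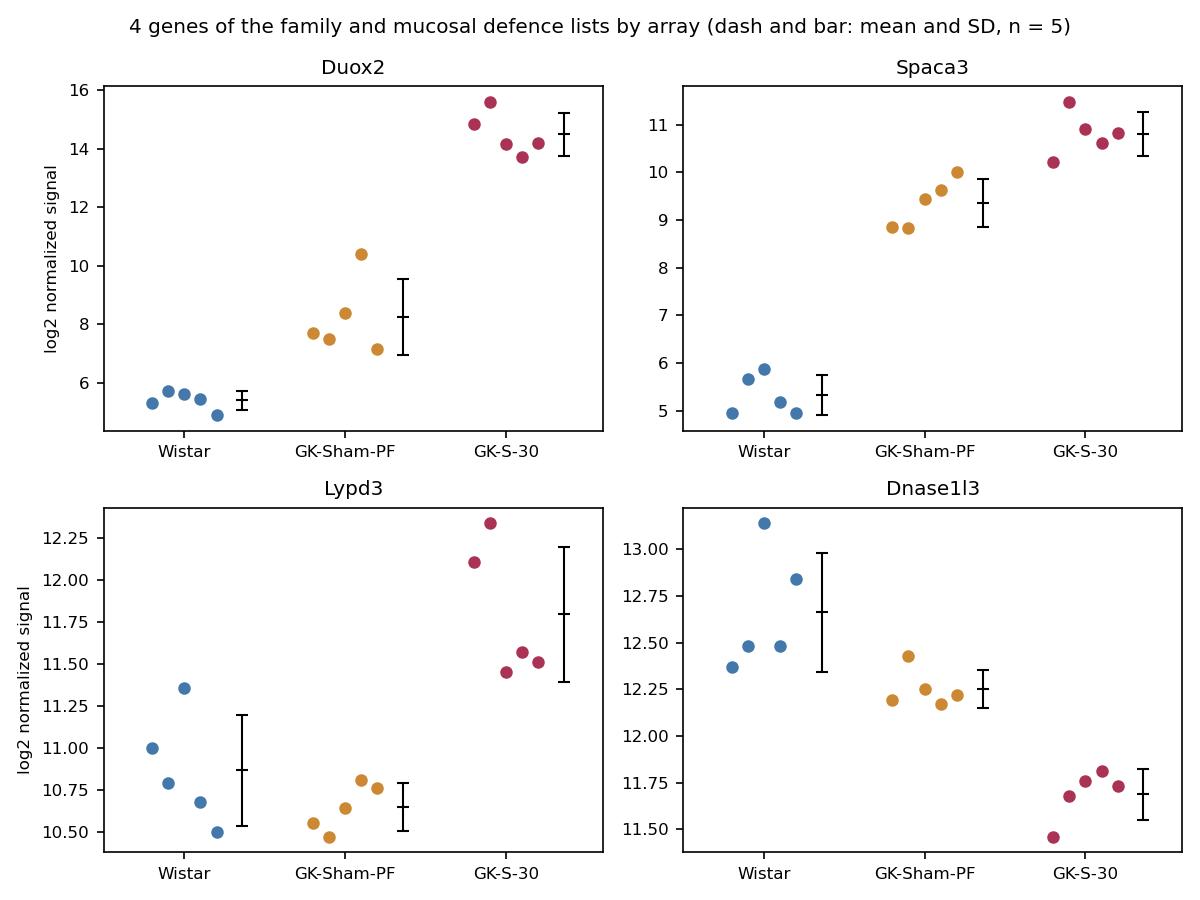
Log2 normalized signal (vertical axis, own range in each panel) of Duox2, Spaca3, Lypd3 and Dnase1l3 on each of 15 arrays, by group, with replicates 1 to 5 from left to right and the mean and SD as dash and bar. Duox2 and Spaca3 rise in steps from Wistar to GK-Sham-PF to GK-S-30 without overlap, Lypd3 lies above all other arrays in GK-S-30, and Dnase1l3 is lowest in GK-S-30.

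Of 30 tested genes of other mucosal defence, 4 rose and 2 fell in GK-S-30 vs. GK-Sham-PF. Duox2, the epithelial oxidase that releases hydrogen peroxide at the surface, gave 13.71 to 15.61 in GK-S-30, 7.14 to 10.41 in GK-Sham-PF and 4.88 to 5.71 in Wistar. It was higher by 6.27 ± 0.5 (SE) in GK-S-30 vs. GK-Sham-PF (adjusted p = 5.7e-06 in limma, and 0.00161 with the slide block), and its highest GK-Sham-PF array was replicate 4, as for Mptx1. Il18, a cytokine made by the epithelium, rose by 0.82 ± 0.12 (SE) (adjusted p = 0.000927 in limma), Fut2, which fucosylates surface glycans, by 0.76 ± 0.15 (SE) (adjusted p = 0.00661 in limma) and Dmbt1, a mucin-like bacterial binding protein, by 1.29 ± 0.32 (SE) (adjusted p = 0.0193 in limma). Slpi, a protease inhibitor with antimicrobial action, fell by 0.59 ± 0.15 (SE) (adjusted p = 0.0215 in limma), a call lost without GK-Sham-PF replicate 1 or GK-S-30 replicate 3 (adjusted p = 0.0578 and 0.0502), and the chitinase Chit1 by 0.56 ± 0.17 (SE) (adjusted p = 0.047 in limma), a call lost in 12 of 15 such runs with adjusted p of up to 0.112 (without GK-S-30 replicate 5). In GK-Sham-PF vs. Wistar 9 rose and 2 fell. S100a8 and S100a9, the calprotectin subunits of neutrophils, rose by 3.78 ± 0.48 (SE) and 2.03 ± 0.33 (SE) (adjusted p = 8.47e-05 and 0.000903 in limma), S100a8 being well above background on 1 of 5 Wistar arrays. With its dim arrays raised to the lowest signal well above background, the S100a8 difference was 2.22, or at least 4.67-fold under this normalization only. Pigr, which carries IgA across the epithelium, rose by 0.74 ± 0.16 (SE) (adjusted p = 0.00685 in limma), and Ccl28, which draws IgA-producing cells, fell by 1.42 ± 0.18 (SE) (adjusted p = 7.34e-05 in limma). Duox2 was higher by 2.84 ± 0.5 (SE) in GK-Sham-PF vs. Wistar (adjusted p = 0.00163 in limma), and by 2.58 with the slide block (adjusted p = 0.268). With the slide as a block the calls given here were lost, except that of Duox2 in GK-S-30 vs. GK-Sham-PF. The differences were then 0.72 for Il18, 0.9 for Fut2, 1.01 for Dmbt1, -0.56 for Slpi and -0.77 for Chit1 in GK-S-30 vs. GK-Sham-PF (adjusted p = 0.0751, 0.104, 0.376, 0.268 and 0.175), and 3.89 for S100a8, 2.01 for S100a9, 0.9 for Pigr and -1.29 for Ccl28 in GK-Sham-PF vs. Wistar (adjusted p = 0.0786, 0.219, 0.22 and 0.093).

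By summed signal, markers of smooth muscle differed most between groups among those of other cell types. Smooth muscle markers (8 on the array) summed to 16.41 to 16.79 in GK-S-30 against 14.61 to 15.69 in GK-Sham-PF and 14.73 to 15.54 in Wistar, and 4 of the 8 (Actg2, Cnn1, Des and Tagln) rose in GK-S-30 vs. GK-Sham-PF. Neutrophil markers (9 on the array, with Mmp8 well above background on no array) summed to 7.71 to 8.92, 8.08 to 8.9 and 6.77 to 8.66 in GK-S-30, GK-Sham-PF and Wistar. The sum includes S100a8 and S100a9, so it is not separate from their values. They were the 2 of 4 tested neutrophil markers called in GK-Sham-PF vs. Wistar, while Mpo and Ngp did not pass. Goblet cell markers (5 on the array) summed to 18.55 to 18.91, 18.61 to 18.83 and 18.32 to 18.62, and those of cycling crypt cells (7 on the array) to 13.13 to 13.79, 13.31 to 13.61 and 13.35 to 13.5. The goblet marker Clca1 was called higher in GK-S-30 vs. GK-Sham-PF, by 0.73 ± 0.17 (SE) (adjusted p = 0.0142 in limma). Tff3, Clca1 and Agr2 were called higher in GK-S-30 vs. Wistar, and no goblet marker was called lower. Among cycling markers only Ascl2 was called, lower in GK-Sham-PF vs. Wistar (-0.68 ± 0.2 (SE)) and in GK-S-30 vs. Wistar (-1.08 ± 0.2 (SE)). Pancreatic acinar markers (10 on the array, 8 tested) summed to 11.95 to 12.37, 12.11 to 12.61 and 11.8 to 12.34. Of the 8, only Amy2a3 was called in GK-Sham-PF vs. Wistar, higher by 4.12 ± 0.57 (SE) (adjusted p = 0.00019 in limma). In GK-S-30 vs. Wistar 2 were called higher (Prss1 and Amy2a3) and 1 lower (Ctrb1), and vs. GK-Sham-PF 1 lower (Ctrb1). The part of the muscle in the values of Mptx1, Dnase1, Lyz2 and the defence genes was not tested.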

How the data were processed

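Total RNA of 15 intestinal segments was hybridised, 1 rat per array, to 1-colour Agilent whole rat genome arrays read with Agilent Feature Extraction 10.7, per the labels. The deposited intensity values are the scanner's processed signals, background-subtracted and detrended within each array by the authors' scanner software, and the series matrix holds log2 values that the authors quantile-normalized. Here log2 processed signals were quantile-normalized after outlier spots were dropped. A gene was its brightest probe among 17066 probes that were well above background on all 5 arrays of at least 1 group (13042 genes), named through RefSeq accessions, then symbols. All arrays entered 1 limma 3.58.1 fit (R 4.3.3), with 3 contrasts and Benjamini-Hochberg adjustment at 0.05, the median SE being 0.15. The fit was also run on simulated data with independent noise for each gene and no slide effect. That run cannot speak to effects of slide or background. Groups come from the labels. The 8 genes, the lists and the tests were chosen with earlier results of these data known. Genes named from the lists passed that threshold with arrays that did not overlap, up to 10 per list and pair, or belong to the families of the 8 genes. Reg3g, Reg3b, the 4 defensins, Sox9, Dnase2, Dmbt1, Chit1, C1qc and other single markers of cell types were also named after their values were seen. The number of arrays limits the precision. Alternatives were another scaling, normexp background correction (offset 50), the series matrix, other filters, the mean of a gene's probes, slide or replicate number as a block, Tukey's correction and leaving out each array. Matching of promoters used Python, and figures matplotlib.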

Additional observations from a re-analysis of the deposited data

Results flagged for a closer look

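Over 117 groups of 5 arrays of the genes named, an array stood apart from the other 4 of its group in 8 by Dixon's ratio above 0.71, where chance gives about 1 in 20 groups. Among the 8 antimicrobial genes, Pla2g2a was 15.19 in Wistar replicate 3, against 14.66 to 14.8 in the others, and Dnase1 was 17.18 in GK-Sham-PF replicate 3, against 17.57 to 17.66. Atg16l1 was 11.05 in GK-Sham-PF replicate 1, against 11.16 to 11.2. Lrrk2 was 6.3 in GK-Sham-PF replicate 5 and Fut2 was 7.5 in Wistar replicate 3, the 2 dimmer arrays, against 6.97 to 7.16 and 8.1 to 8.28. In Wistar replicate 2, S100a8 was 3.55, against 1.23 to 1.59, and S100a9 was 6.16, against 4.49 to 4.97. Lcn2 was 5.63 in GK-S-30 replicate 2, against 7.47 to 8.14.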

How the results depend on the processing

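Of the recomputed log2 differences of the antimicrobial genes, 515 moved by less than 1 SD between replicates, 7 moved by more, and none that was called changed sign. Those 7 came from 2 settings. With normexp background correction Mptx1 was 5.35 in GK-S-30 vs. GK-Sham-PF and 5.97 vs. Wistar. With the slide as a fixed block GK-S-30 vs. GK-Sham-PF became -0.51 for Pla2g2a, -0.29 for Mmp7, -0.63 for Lyz2 and -3.42 for Dnase1, and Dnase1 became -3.94 vs. Wistar.

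The numbers of genes called in GK-S-30 vs. GK-Sham-PF, GK-Sham-PF vs. Wistar and GK-S-30 vs. Wistar were 1262, 1154 and 3420. They became 291, 180 and 240 with the slide as a fixed block, and those of the defence lists, 16, 18 and 34, became 3, 2 and 3; of the named calls, 2 of 11, 2 of 14 and 3 of 24 stayed called, and 11, 14 and 24 kept their sign. Slides and groups overlap, which leaves few arrays for such a fit. Tukey's correction with no adjustment over genes gave 2126, 1919 and a count within 1.5 times for the last. Leaving out each array gave 871 to 1512, 866 to 1220 and 2832 to 3705 genes, and 11 to 17, 15 to 19 and 29 to 35 of the defence lists. The other alternatives stayed within 1.5 times of these counts. Without both dimmer arrays, an alternative chosen after seeing the data, 1635, 1295 and 3896 genes were called.

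The replicate numbers did not pair the samples: over 15 same-numbered pairs, deviations correlated between -0.28 and 0.18, and 1 of 15 arrays correlated best with its own number. With the replicate number as a block 894, 857 and 2874 genes were called, and 13, 16 and 31 of the defence lists. Genes near background, such as Mptx1 outside GK-S-30, have uncertain fold changes.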
